A study of Mus musculus with 6 samples.

Results

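Type I interferon-stimulated genes were read as a set of 39 named genes in bulk messenger RNA of the mouse forebrain. The names are a list of antiviral and signalling genes that was chosen with earlier results of these data known. Each name matched 1 of the 35275 gene identifiers of the deposited tables. The libraries came from 6 C57BL/6 mice killed at postnatal day 9. In the knockout group (cKO, genotype Pdgfra-CreER:Parp1fl/fl) 3 mice carried a tamoxifen-dependent recombinase under the Pdgfra gene together with floxed Parp1. The control group (non-Cre, Parp1fl/fl) held 3 littermates with the floxed gene and without the recombinase. All 6 mice, controls included, had been given tamoxifen into the peritoneum on postnatal days 1, 2 and 3. Pdgfra drives the recombinase in oligodendrocyte precursors and also in some perivascular and meningeal cells, whereas the RNA came from all cells of the forebrain. More cells of an expressing type and more RNA per cell therefore cannot be told apart in any value given here.

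Type I interferons are secreted alpha and beta cytokines that bind the receptor pair Ifnar1 and Ifnar2. The receptor activates the kinases Jak1 and Tyk2, and a complex that holds Stat2 and Irf9 then binds the interferon-stimulated response element in the promoters of its target genes. In the brain most cell types can respond, and microglia, endothelium and ependyma are known as strong responders. The products include sensors of foreign nucleic acid, enzymes that block virus replication and proteins that feed back on the pathway.

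The letters of that response element are shown first. The list holds genes known to respond to interferon, so a high share with these letters follows in part from its choice. Promoters were 300 bases long, 250 before and 50 after each annotated start, from RefSeq on GRCm38.p6, the build also called mm10. They were searched on both strands for GAAA, any 2 bases and GAAA again, the core of the response element, and for TTC, any 3 bases and GAA, the core of the gamma-activated sequence. Of the 39 members, 29 had a promoter entry. Oas2, Mx1, Mx2, Usp18, Dhx58, Zbp1, Ly6e, Rtp4, Ifi27 and Ifi27l2a had none. The response element's letters occurred in 16 of the 29 members (55.2%), against 3.99% of 27025 genes with an entry. Those of the gamma-activated sequence occurred in 6 of the 29 (20.7%), against 9.55% of all genes with an entry. Matches of both motifs share bases in Bst2 and in Ifitm3. The windows below are a selection from the 16 members with a match. Those of Ddx58, Eif2ak2, Gbp2, Ifih1, Ifitm3 and Oas3, and of the other Trim30a promoter, are not printed. Windows are read 5′ to 3′ on the gene's own strand, with every base of a response element match on either strand in capitals:
Ifit1 (chr19:34640770-34640828, plus strand, 2 matches): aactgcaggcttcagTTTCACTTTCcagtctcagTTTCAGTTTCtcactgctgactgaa
Ifit3 (chr19:34583358-34583431, plus strand, 2 matches): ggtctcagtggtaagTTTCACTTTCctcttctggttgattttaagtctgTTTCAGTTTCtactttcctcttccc
Ifit3b (chr19:34607754-34607827, plus strand, 2 matches): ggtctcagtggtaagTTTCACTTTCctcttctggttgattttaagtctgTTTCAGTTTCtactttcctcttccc
Oas1a (chr5:120907515-120907560, minus strand, 2 matches): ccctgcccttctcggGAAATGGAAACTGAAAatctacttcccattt
Gbp3 (chr3:142559984-142560029, plus strand, 2 matches): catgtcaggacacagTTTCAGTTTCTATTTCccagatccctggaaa
Isg15 (chr4:156200860-156200911, minus strand, 3 matches): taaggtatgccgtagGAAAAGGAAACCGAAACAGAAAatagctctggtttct
Bst2 (chr8:71537572-71537617, minus strand, 2 matches): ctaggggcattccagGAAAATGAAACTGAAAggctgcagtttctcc
Rsad2 (chr12:26456548-26456587, minus strand, 1 match): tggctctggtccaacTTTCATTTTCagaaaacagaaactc
Stat2 (chr10:128270261-128270300, plus strand, 1 match): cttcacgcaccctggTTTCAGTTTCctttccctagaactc
Trim30a (chr7:104465205-104465244, minus strand, 1 match): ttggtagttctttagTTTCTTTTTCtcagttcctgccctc

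The windows of Ifit3 and Ifit3b are letter for letter the same. A run of 3 overlapping matches stands in the Isg15 window, at 78 to 57 bases before the start. The letters were not found within the searched promoters of Ifit2, Cmpk2, Irf7, Irf9, Oasl2, Ifi44, Xaf1 and others. The 16 members with a match had a median log2 fold change of 1.05 (range 0.31 to 2.55), and the 13 without had 1.02 (range 0.08 to 2.36), in a fit that kept all genes with a read. A match is a description of letters, and no match says only that they are not in this window.

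Across the members, expression was higher in the cKO forebrains, mostly from low control levels, and 3 genes passed the test over all genes. Ifi27, Ifi27l2a and Trim30a rose by edgeR's quasi-likelihood test at a Benjamini-Hochberg adjusted p under 0.05, and no member (0 of 37) fell. Of all 16938 genes tested, 0.059% were called higher and 0.207% lower. At an unadjusted edgeR p under 0.05, 34 of the 37 fitted members were higher and 0 lower, against 3.52% and 2.75% of all genes. The members took part in that test in 37 cases. Oasl1 and Oas3 had too few reads, and 8 members (Ifit1, Ifit3b, Oas1a, Oas2, Mx1, Zbp1, Ifi44 and Ifi35) met the minimum only through the cKO libraries. Counts over fitted members, here and below, are therefore favoured by the filter. Because the list was chosen with earlier results of these data known, its counts beside those of all genes describe it and test nothing. The next counts are over all 39 members. All 39 had a positive log2 fold change when no gene was filtered, as did 52.4% of all genes with a read. The median over the 39 was 1.11, against 0.011 over all genes. In 31 of the 39 the 3 cKO mice all lay above the 3 controls, a pattern shown by 5.43% of all genes with a read. The groups overlapped in the other 8: Ifit2, Oasl1, Oas3, Mx2, Isg15, Zbp1, Stat2 and Cmpk2. Levels below are CPM, the read count over the library total after TMM scaling, listed for mice 1, 2 and 3 of a group in that order. Means carry the SD over n = 3 mice.

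**Figure D1:**
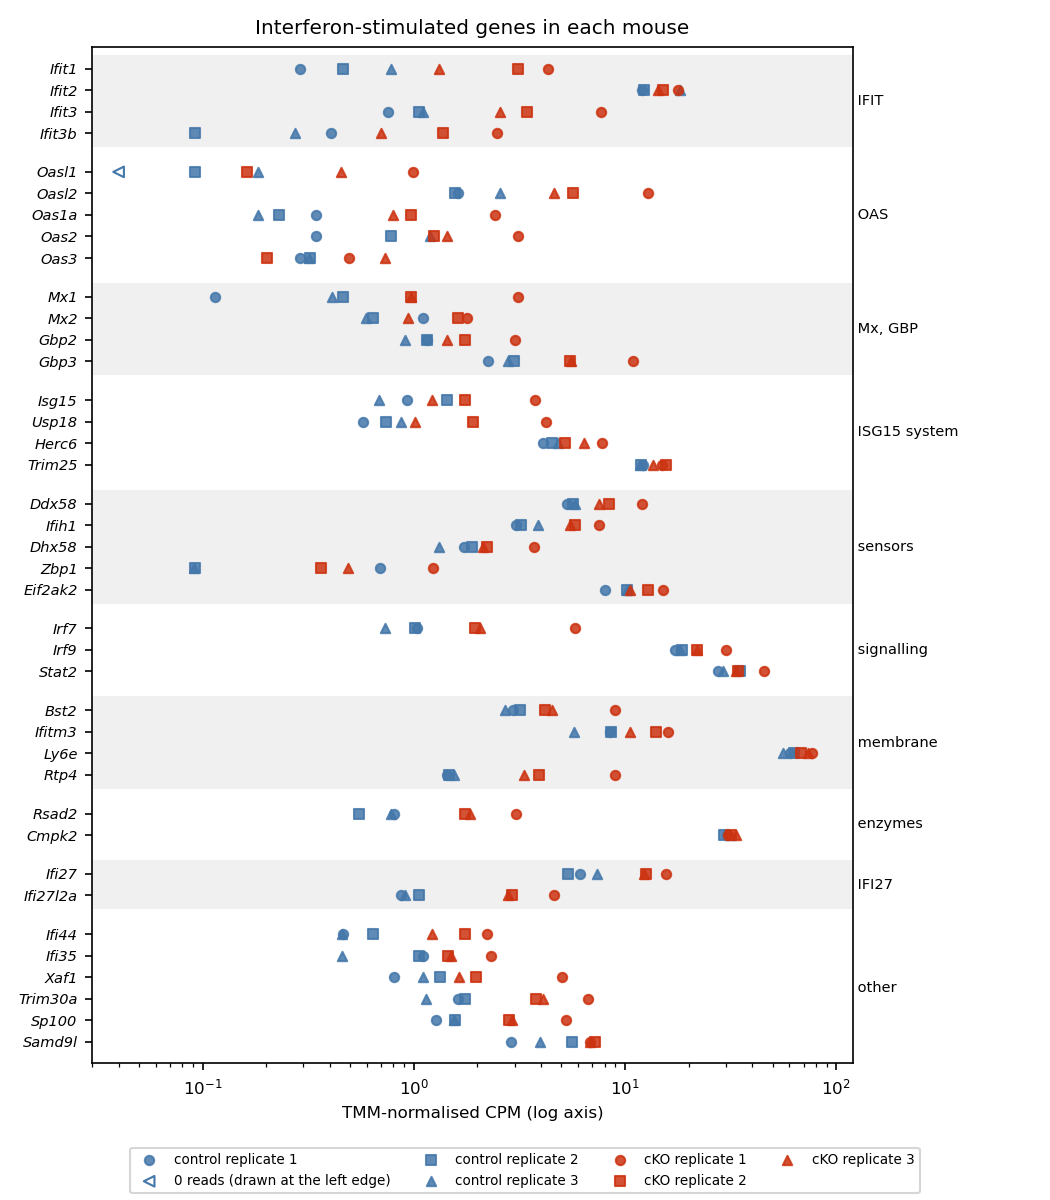
TMM-normalised CPM (log axis) of the 39 members in each of the 6 mice, grouped by role, with controls in blue, cKO in red and the marker shape giving the mouse number. The red circles (cKO mouse 1) are the highest point for 34 members, and a library with 0 reads is drawn as an open triangle at the left edge.

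The call of these 3 genes depended on single libraries and on the test. Without control mouse 1 no member (0) was called by edgeR (0.0232% of all genes were called higher), although 29 of 38 had an unadjusted edgeR p under 0.05, as did 4.14% of all genes tested then in the higher direction. DESeq2 called 16 of the 39 members (0.189% of all genes were called higher by it). In the edgeR fit without a filter 14 were called (0.193% of all genes). Limma on log2(FPKM + 1) without a filter called none (0; 0.0116% of all genes), though all 39 were positive there too. Without cKO mouse 3 edgeR called 6 members (0.111% of all genes), and with the replicate number as a block 1 (0.0295%).

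The ligands of the pathway were nearly absent from these libraries. The 18 type I interferon genes listed, among them Ifnb1 and the Ifna genes, had 6 reads in all 6 libraries together, and 14 of them had none. Ifnb1 had 0 reads in every library, which allows at most 0.174 CPM in the shallowest and 0.102 CPM in the deepest (3 counts of the total, counting error only). The 6 reads, of Ifna2, Ifna11, Ifnab and Ifnk, all came from cKO mice 2 and 3. Ifng, the type II interferon, had 5 reads, 4 of them in controls. At this depth a difference in ligand transcripts was not detectable.

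Both chains of the type I receptor were expressed at similar levels in the groups. Ifnar1, the signalling chain of the type I receptor, was at 71.0 ± 5.32 CPM in controls and 73.3 ± 2.85 CPM in cKO (log2 fold change 0.05, 95% confidence interval -0.11 to 0.20). Ifnar2, the high-affinity chain, was at 10.4 ± 1.04 and 10.5 ± 0.525 CPM (0.03, interval -0.24 to 0.29). No receptor gene was called among 5 tested, and their median was 0.05. Ifnlr1, the type III receptor chain, had too few reads to be tested (21 in controls and 32 in cKO). Il10rb, a subunit shared with the type III receptor, had the smallest p of them, with a log2 fold change of 0.30 (adjusted p = 0.846 by edgeR), and Ifngr1 had 0.14. Among 7 JAK-STAT genes none was called either, with a median of 0.06. Jak1 and Jak2 both had a log2 fold change of -0.08.

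Among the members that transmit the signal, Irf7 had a larger log2 fold change than Irf9 and Stat2, and none was called. Irf7, the factor that amplifies interferon production, was at 1.04, 1.01 and 0.73 CPM in controls and 5.77, 1.94 and 2.05 CPM in cKO. The groups did not overlap, and cKO mouse 1 was far above the rest. The log2 fold change of Irf7 was 1.79 (SE 0.46), not called (adjusted p = 0.339 by edgeR). Irf9, the DNA-binding subunit of the complex, was at 17.3, 18.6 and 18.2 CPM in controls and 30.2, 22.0 and 21.9 CPM in cKO. Its log2 fold change was 0.45 (SE 0.12, adjusted p = 0.338), again with groups apart. Stat2 was at 27.5, 35.1 and 29.0 CPM against 45.5, 34.4 and 33.5 CPM. Control mouse 2 lay above cKO mice 2 and 3 for Stat2, and the log2 fold change was 0.30 (SE 0.13, adjusted p = 0.783).

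Sensors of RNA and DNA among the members were 1.35 to 1.84 times higher in cKO when Zbp1 is left out, and none was called. Zbp1 was 2.46 times higher, with few reads and overlapping groups, and is given below with the low-count members. Ifih1, which encodes the RNA helicase MDA5, was at 3.06, 3.22 and 3.88 CPM in controls and 7.50, 5.81 and 5.50 CPM in cKO. It had the smallest p of the sensors, with a log2 fold change of 0.88 (SE 0.19, adjusted p = 0.12 by edgeR). Ddx58, which encodes RIG-I, was at 5.31, 5.70 and 5.79 CPM against 12, 8.40 and 7.51 CPM (log2 fold change 0.72, SE 0.18). All cKO mice were above all controls for both helicases. Eif2ak2, the RNA-dependent kinase PKR, was the sensor with the highest level per length (2.59 FPKM over the 6 mice). Its values were 8.08, 10.2 and 10.2 CPM in controls and 15.2, 12.8 and 10.6 CPM in cKO, so that the lowest cKO mouse stood just above the highest control (log2 fold change 0.43). Dhx58, the regulatory helicase LGP2, had 0.69. Exons of Eif2ak2 and Dhx58 overlap genes on the opposite strand, which makes their counts less certain because the strand setting of the counting is not given in the sources used here.

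The IFIT family, which binds foreign RNA, had log2 fold changes of 2.20 to 2.55 in 3 members and of 0.14 in Ifit2. Ifit1 had 5, 10 and 17 reads in controls and 88, 77 and 38 in cKO, or 0.289, 0.460 and 0.776 CPM against 4.34, 3.11 and 1.32 CPM. All cKO mice were above all controls, and the log2 fold change was 2.46 (95% confidence interval 1.36 to 3.56, adjusted p = 0.13 by edgeR). Ifit3 was at 0.751, 1.06 and 1.10 CPM in controls and 7.70, 3.43 and 2.57 CPM in cKO (log2 fold change 2.20). Ifit2 behaved otherwise. It was at 12, 12.3 and 18.3 CPM in controls and 17.9, 15.2 and 14.3 CPM in cKO, and its highest library was control mouse 3. Its log2 fold change was 0.14 (interval -0.22 to 0.50). Ifit2 had 3.93 FPKM over the 6 mice, against 0.648 for Ifit1 and 1.59 for Ifit3. The 4 genes lie in 1 cluster on chromosome 19 (mm10), Ifit2 at 34550694 to 34576419 and Ifit1 at 34640871 to 34650009. Of the distinct 50-base stretches of Ifit3 transcripts 51.2% also occur in Ifit3b, so reads of this pair can be lost or swapped.

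A pair of neighbouring genes for nucleotide enzymes also differed from each other in size of change. Rsad2, which encodes viperin, a radical SAM enzyme that makes a chain-terminating nucleotide, lies on chromosome 12 at 26442746 to 26456452. Cmpk2, a mitochondrial nucleotide kinase, follows on the other strand at 26469204 to 26479837. Rsad2 was at 0.808, 0.552 and 0.776 CPM in controls and 3.06, 1.74 and 1.84 CPM in cKO, with groups apart. Its log2 fold change was 1.62 (SE 0.33, adjusted p = 0.102 by edgeR, the smallest of the members that were not called). Cmpk2 was at 30.3, 29.3 and 31.4 CPM in controls and 30.6, 31.6 and 33.7 CPM in cKO. These groups overlapped, and the log2 fold change was 0.08 (interval -0.09 to 0.25).

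The OAS family, whose products make the oligoadenylates that activate RNase L, was low in controls throughout. Oasl2, the OAS gene with the highest level per length (1.54 FPKM over the 6 mice), was at 1.62, 1.56 and 2.56 CPM in controls and 12.8, 5.65 and 4.59 CPM in cKO. All cKO mice were above all controls (log2 fold change 1.98, SE 0.45, adjusted p = 0.328 by edgeR). Oas2 was at 0.346, 0.782 and 1.19 CPM against 3.11, 1.25 and 1.43 CPM. Its cKO mouse 2 was barely above control mouse 3, and the log2 fold change was 1.26.

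Among the GTPases, Gbp3 had the smallest p and the highest level per length. Gbp3, a guanylate-binding protein, was at 2.25, 2.99 and 2.78 CPM in controls and 10.9, 5.49 and 5.53 CPM in cKO. The groups were apart (log2 fold change 1.42, SE 0.28, adjusted p = 0.118 by edgeR). Gbp2 had a log2 fold change of 0.92. Mx1 had 2, 10 and 9 reads in controls and 63, 24 and 28 in cKO (log2 fold change 2.25), and Mx2 had 0.90 with overlapping groups. The Mx1 gene of C57BL/6 mice is known to lack coding exons, so these reads are of a transcript without a working protein.

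In the ISG15 system, a ubiquitin-like tag and the enzymes that attach and remove it, the 4 members spanned 0.30 to 1.66 on the log2 scale. Isg15, the tag, was at 0.924, 1.43 and 0.684 CPM in controls and 3.75, 1.74 and 1.22 CPM in cKO. Control mouse 2 lay above cKO mouse 3, and the log2 fold change of 1.11 had an interval from 0.12 to 2.09. Usp18, which removes the tag and damps the receptor, was at 0.577, 0.736 and 0.867 CPM against 4.24, 1.90 and 1.01 CPM (log2 fold change 1.66, adjusted p = 0.552 by edgeR). Herc6, the mouse ligase for ISG15, had 0.52. Trim25, a ubiquitin ligase that activates RIG-I, was at 12.2, 11.9 and 11.8 CPM against 14.9, 15.6 and 13.6 CPM. Its log2 fold change of 0.30 was small, yet its groups did not overlap.

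Members that act at membranes included the 2 most abundant per length. Ly6e, a surface protein that restricts virus entry, ranked first of the 39 with 29.0 FPKM over the 6 mice, and Ifitm3, an endosomal restriction factor, was next with 15.6 FPKM. Ly6e was at 60.7, 63.0 and 55.7 CPM in controls and 76.5, 68.2 and 73.4 CPM in cKO, which set the groups apart by a log2 fold change of 0.28 (SE 0.07, adjusted p = 0.255 by edgeR). Ifitm3 was at 8.49, 8.56 and 5.75 CPM against 15.9, 14.0 and 10.6 CPM (log2 fold change 0.83, SE 0.19, adjusted p = 0.185). Bst2, or tetherin, which holds budding virus at the cell surface, was at 2.94, 3.17 and 2.69 CPM against 8.93, 4.16 and 4.49 CPM (log2 fold change 0.98). Rtp4, a receptor transporter that binds nucleic acid, was at 1.44, 1.47 and 1.55 CPM against 8.93, 3.92 and 3.34 CPM. Its controls were nearly level, and its log2 fold change was 1.83 (SE 0.39, adjusted p = 0.187). All 4 membrane members had groups that did not overlap, with cKO higher, as did 5.43% of all genes with a read.

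The IFI27 family held 2 of the 3 genes that rose. Ifi27 (ENSMUSG00000064215, chromosome 12, 103434211 to 103440239), a mitochondrial and nuclear-envelope protein, was at 6.12, 5.38 and 7.39 CPM in controls and 15.7, 12.6 and 12.3 CPM in cKO. Every cKO mouse was well above every control, a rise of 2.14-fold from 6.30 ± 1.02 to 13.5 ± 1.86 CPM (log2 fold change 1.10, SE 0.15, adjusted p = 0.00619 by edgeR). Ifi27l2a (ENSMUSG00000079017, chromosome 12, 103442167 to 103443680), its shorter neighbour on the opposite strand, was at 0.866, 1.06 and 0.913 CPM in controls and 4.59, 2.91 and 2.78 CPM in cKO. It rose 3.57-fold (log2 fold change 1.83, SE 0.28, adjusted p = 0.0144 by edgeR). The call of Ifi27 was lost without control mouse 1 (adjusted p = 0.0563). That of Ifi27l2a was lost without control mouse 1 (0.1) or cKO mouse 1 (0.0679), and with the replicate block (0.0591). On log2(FPKM + 1) without a filter limma called neither (adjusted p = 0.0736 for Ifi27 and 0.0627 for Ifi27l2a).

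Trim30a was the third gene that rose. It encodes a tripartite-motif protein that restrains inflammatory signalling (ENSMUSG00000030921, chromosome 7, 104409025 to 104465193). Its values were 1.62, 1.75 and 1.14 CPM in controls and 6.71, 3.80 and 4.07 CPM in cKO. It rose 3.21-fold (log2 fold change 1.68, SE 0.28, adjusted p = 0.0231 by edgeR). The call was lost without control mouse 1 (adjusted p = 0.116), control mouse 2 (0.0559) or cKO mouse 1 (0.0976). It was also lost by edgeR without robust dispersion (0.0533), with the replicate block (0.054) and by limma in the 3 FPKM fits (0.278 to 0.544). Of its distinct 50-base transcript stretches, 5.98% also occur in Trim30d, so some of its reads may not be told apart from that gene's.

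The other effectors had groups apart in each case, with cKO higher, as did 5.43% of all genes with a read. Samd9l, a translation inhibitor, was at 2.89, 5.61 and 3.97 CPM in controls and 6.86, 7.23 and 6.82 CPM in cKO (log2 fold change 0.73, adjusted p = 0.357 by edgeR), and here the cKO mice were nearly level. Sp100, a nuclear body protein, was at 1.27, 1.56 and 1.55 CPM against 5.28, 2.83 and 2.92 CPM (log2 fold change 1.31). Ifi44, Xaf1 and Ifi35 had log2 fold changes of 1.69, 1.37 and 1.01. Exons of Ifi35, Irf7, Usp18, Gbp2 and Oasl1 also overlap genes on the opposite strand.

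**Figure D2:**
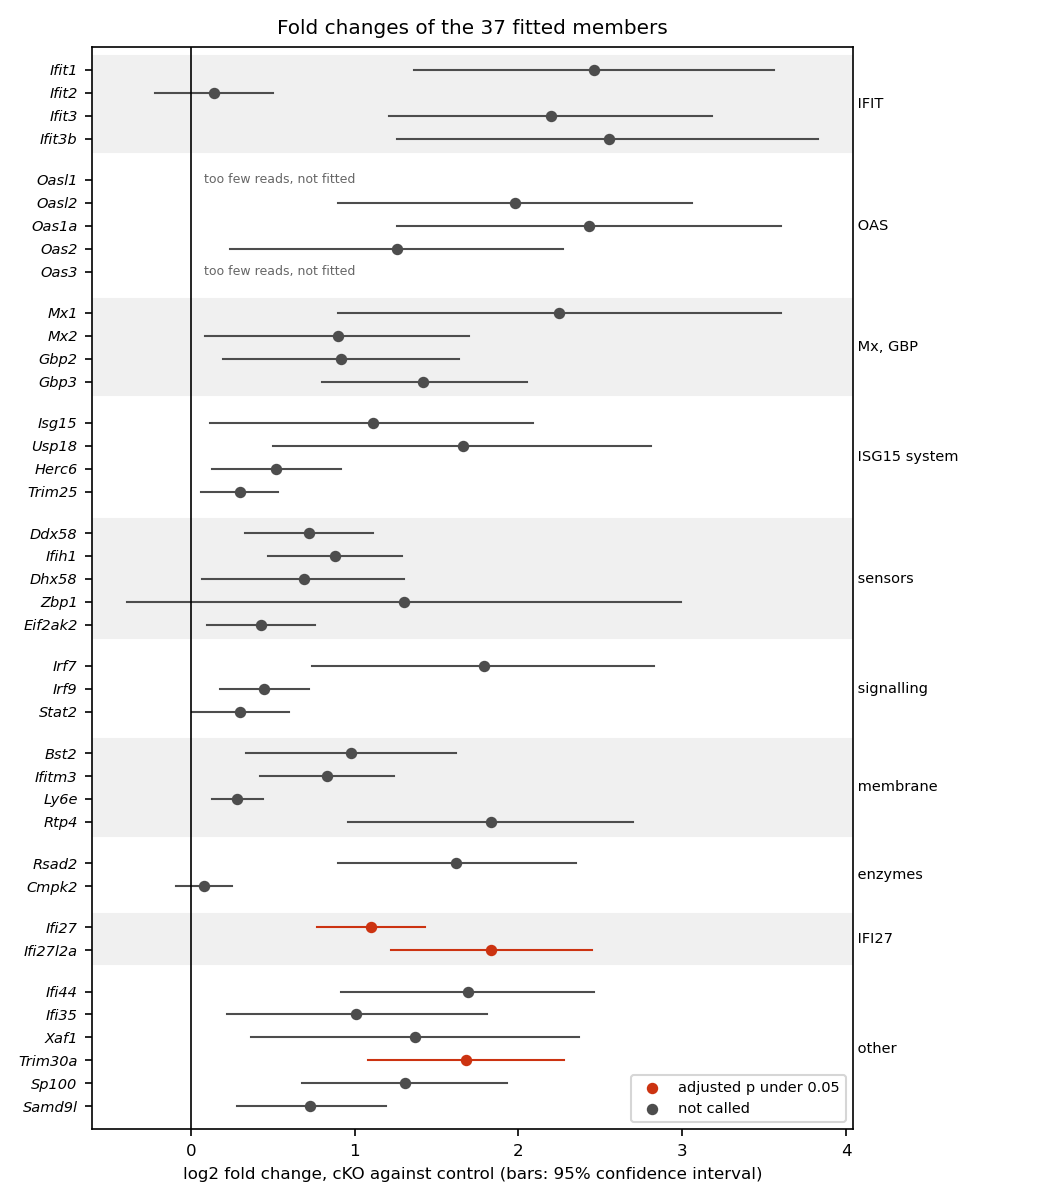
Log2 fold change of cKO against control for the 37 fitted members, by role, with 95% confidence intervals as bars and called genes in red. Ifi27, Ifi27l2a and Trim30a are the called genes, and the intervals of Ifit2, Zbp1 and Cmpk2 include 0.

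The low-count members were Oasl1, Oas3, Zbp1, Oas1a and Ifit3b, whose means over the 6 mice were under 1 CPM. Oasl1, an OAS-like factor that limits Irf7 translation, had 0, 2 and 4 reads in controls and 20, 4 and 13 in cKO. Oas3 had 5, 7 and 7 reads against 10, 5 and 21, and cKO mouse 2 was the lowest of all 6 in CPM. Neither was fitted. Zbp1, a sensor of Z-form nucleic acid, had 12, 2 and 2 reads against 25, 9 and 14, and control mouse 1 lay above cKO mice 2 and 3 in CPM (interval of the log2 fold change -0.39 to 2.99). Oas1a had 6, 5 and 4 reads against 49, 24 and 23, and was the OAS gene with the smallest p (log2 fold change 2.43, adjusted p = 0.142 by edgeR). Of its distinct 50-base stretches 57.6% also occur in Oas1g. Ifit3b had 7, 2 and 6 reads against 50, 34 and 20 (log2 fold change 2.55, the largest of the members). Counts this low, and the shared sequence, leave the size of these changes uncertain.

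In the median level of the members, the 3 cKO mice differed among themselves more than the controls did. The median of the 39 members, each divided by its control mean, was 0.931, 1.04 and 1.03 in control mice 1, 2 and 3. It was 3.61 in cKO mouse 1, 1.77 in cKO mouse 2 and 1.67 in cKO mouse 3. At least 2 times the control mean was reached by 29 members in cKO mouse 1, 16 in cKO mouse 2 and 15 in cKO mouse 3, against 8.52%, 7.93% and 7.65% of all genes with a read. Above every control lay 37, 34 and 34 members, against 25.5%, 22.9% and 23.9% of all genes with a read. The highest library was cKO mouse 1 for 34 of the 39 members, as for 18.4% of all genes with a read. The exceptions were Trim25 and Samd9l (cKO mouse 2), Cmpk2 and Oas3 (cKO mouse 3) and Ifit2 (control mouse 3). Without cKO mouse 1 the median log2 fold change of the fitted members was 0.74 in place of 1.11, all 37 were still positive, and Ifi27 alone was called (adjusted p = 0.0489 by edgeR; 0.0347% of all genes were called higher).

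**Figure D3:**
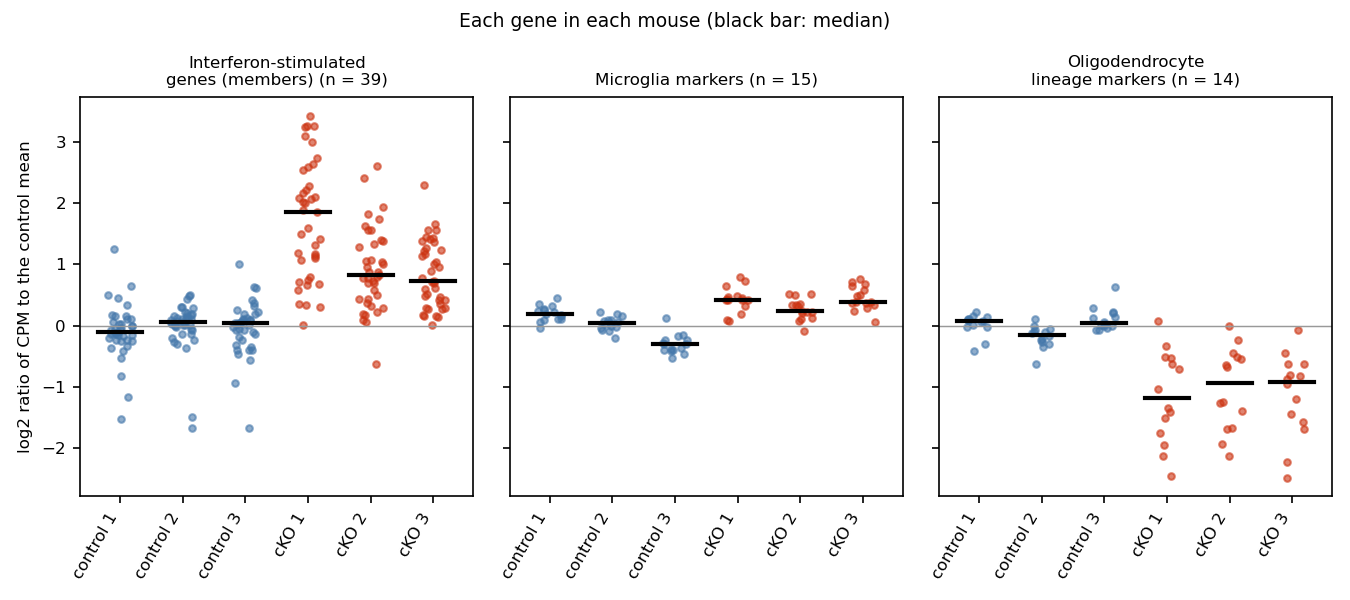
Log2 ratio of each gene's CPM to its control mean in each mouse for the 39 members, 15 microglia markers and 14 oligodendrocyte lineage markers, with the median as a black bar (Oasl1 in control mouse 1, at 0, is not drawn). The members peak in cKO mouse 1, the median of the microglia markers is lowest in control mouse 3, and that of the lineage markers is lower in all 3 cKO mice than in any control.

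The median change was larger in members with lower control levels, with exceptions among single genes. The 6 members with a control mean of at least 10 CPM (Ifit2, Trim25, Irf9, Stat2, Ly6e and Cmpk2) had log2 fold changes from 0.08 to 0.46, with a median of 0.30. The 17 members between 1 and 10 CPM had a median of 0.99. The 16 members under 1 CPM had a median of 1.74 and a range from 0.62 to 2.55. Spearman's rho between control FPKM and log2 fold change was -0.65 over the 39 members. This is a description across genes of the same 6 libraries, and the control values enter both measures.

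**Figure D4:**
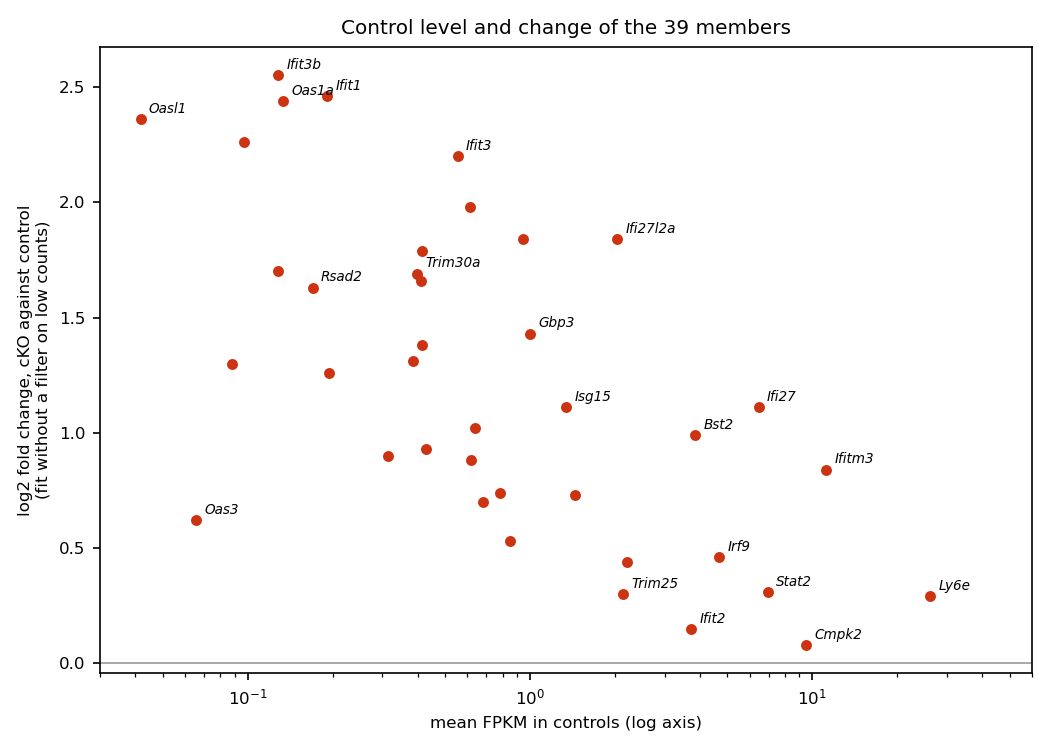
Mean FPKM in controls (log axis) against the log2 fold change of cKO over control, from the fit without a filter, for the 39 members. Cmpk2, Stat2 and Ly6e have high control levels and lie at 0.08, 0.31 and 0.29. Ifitm3 and Ifi27 have similar levels and lie at 0.84 and 1.11, and Ifit1 and Ifit3b have low levels and reach the top.

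Other genes of the pathway were read from lists alongside the members. Of 66 further interferon-stimulated genes 55 were tested, 4 rose and none fell, with a median log2 fold change of 0.52. Of all genes tested 0.059% were called higher and 0.207% lower. Those that rose were Lgals3bp, a secreted galectin-binding protein (1.20), Ifi204, a DNA sensor of the Ifi200 family (1.94), and a pair of antigen-presenting class I genes, H2-K1 (0.74) and H2-D1 (0.43). Ifi204 was at 0.924, 0.920 and 0.456 CPM in controls and 3.80, 2.58 and 2.47 CPM in cKO, thus also highest in cKO mouse 1. Of genes driven mainly by type II interferon 17 were tested and none was called, with a median of 0.52. Irgm1 and Iigp1, GTPases that act on vacuoles of intracellular pathogens, had the smallest p of these (log2 fold changes 0.74 and 1.27). Both lists, like the members, were highest in cKO mouse 1. The median ratio of their tested genes to the control mean was 1.61, 1.35 and 1.26 in cKO mice 1, 2 and 3 for the further interferon-stimulated genes. For the type II genes it was 2.14, 1.28 and 1.21.

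Among genes that switch on interferon transcription and those that restrain it none was called. The 16 inducers had a median log2 fold change of 0.09, and 14 were positive, as were 49.8% of all genes tested. Groups did not overlap, with cKO higher, for 4 inducers (Tmem173, Cgas, Tlr7 and Nfkb1), as for 6.08% of all genes tested. Irf3, the factor downstream of the sensors, was at 16.6 ± 2.45 CPM in controls and 17.5 ± 2.57 CPM in cKO (log2 fold change 0.07). Tlr7, an endosomal RNA receptor, and Tmem173, which encodes STING, had the smallest p of the inducers (log2 fold changes 0.56 and 0.92, adjusted p = 0.485 for both by edgeR). None of 15 negative regulators was called, with a median of 0.03, and Samhd1, a nucleotide hydrolase, and Ptpn6, a phosphatase of blood cells, led by p with 0.17 and 0.47. Among 8 tested genes of NF-kB and inflammatory cytokines none was called (median 0.43), with Ptgs2 at 0.78 and Il1a at 0.77.

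**Figure D5:**
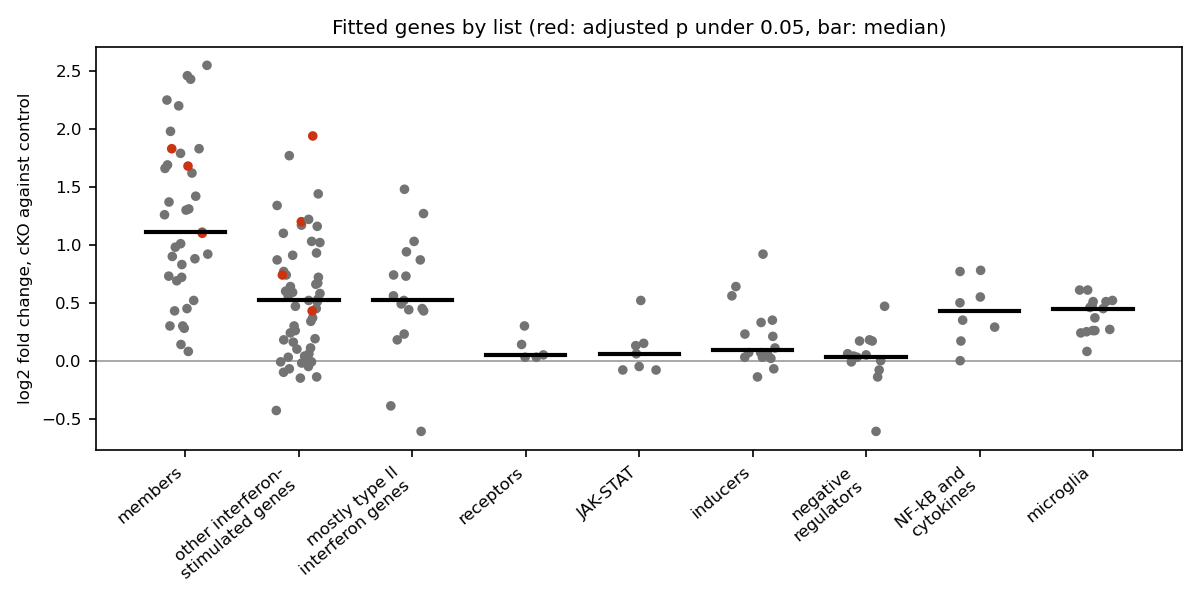
Log2 fold change of every fitted gene in the member list and in 8 other lists, with the median as a bar and called genes in red. The members have the highest median, 1.11, while the receptor, JAK-STAT, inducer and negative regulator lists have medians between 0.03 and 0.09.

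Markers of cell types were read in the same mice. All 15 microglia markers had a positive log2 fold change, as did 49.8% of all genes tested. Their median was 0.45, and none was called. Their summed level was 361 to 527 CPM in controls and 542 to 649 CPM in cKO. The lowest sum was in control mouse 3 and the highest in cKO mouse 3. The median ratio of these markers to their control mean was 1.34, 1.18 and 1.31 in cKO mice 1, 2 and 3. The oligodendrocyte lineage markers, those of the targeted lineage, had a median of -1.01. Of these 9 of 14 fell, against 0.207% of all genes tested. Their sum was 1020 to 1200 CPM in controls and 578 to 642 CPM in cKO. Endothelial markers summed to 285 to 297 CPM in controls and 277 to 350 CPM in cKO (median log2 fold change 0.08). The part of microglial or endothelial cells in the members' values was not tested. Markers of monocytes and neutrophils summed to 6.57 to 9.89 CPM in controls and 9.01 to 10.7 CPM in cKO, and 4 of 10 were tested. Of the list for lymphocytes and plasmacytoid dendritic cells, which holds Bst2 and the microglial gene Siglech, 5 of 17 were tested. Of its 17 genes 2, the natural killer cell genes Nkg7 and Ncr1, were at 0 in every library and the other 15 had reads. The T cell genes Cd3e and Cd3d had 9 and 5 reads in controls and 0 in cKO, too few to be tested. All 5 tested genes of the list had a positive log2 fold change (median 0.25), and none was called. The list summed to 12.2 to 22.5 CPM in controls and 21.8 to 25.1 CPM in cKO. Red blood cell genes summed to 115 CPM in cKO mouse 1 and 188 CPM in control mouse 1, against 8.26 to 43.8 CPM in the other mice.

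Total counts ran from 17262042 to 29310193 per library. Parp1, the targeted gene, was at 90.8, 97.3 and 85.6 CPM in controls and 80.8, 79.7 and 79.1 CPM in cKO, apart in all mice but not called (log2 fold change -0.19, adjusted p = 0.572 by edgeR). Control mouse 1 was the only mouse with Y-linked reads (1123 of Ddx3y, at most 1 elsewhere). Control mouse 3 differed in tissue makeup, with striatal markers at 317 CPM against 923 to 1190 CPM in the others and thalamic markers at 637 CPM against 258 to 306 CPM. Without control mouse 3 the median log2 fold change of the fitted members was 0.94, and the same 3 members were called (0.0932% of all genes were called higher). The labels call the controls littermates and do not say which mice shared a litter or a preparation day.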

How the data were processed

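Poly-A RNA of 6 forebrains was sequenced, with a directional library kit per the labels' protocols. In the deposited tables, counts were whole reads of each Ensembl gene in each mouse. The deposited FPKM values equalled count over length and library total, with a whole length within 0.01 bp in 100% of values. Per the submitters' processing notes, CASAVA, STAR 2.5, HTSeq 0.6.1, DESeq and the mm10 build were used, with no role stated. For the annotation release and strand setting: not given in the sources used here. GENCODE M21 named 34490 of 35275 identifiers, and the others took 0.119% to 0.130% of counts.

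Counts were tested with edgeR 4.0.16 (R 4.3.3): filterByExpr (minimum count 10, total 15), TMM, robust quasi-likelihood, two-sided, Benjamini-Hochberg adjustment over 16938 genes, called under 0.05. Limma 3.58.1 and DESeq2 1.42.0 served as alternatives, with leave-one-out fits. Limma took the deposited FPKM on log2(FPKM + 1) and log2(FPKM + 0.1). The fit was tested on simulated data with the same dispersion for all genes, in which only genes with a mean of at least 1 CPM were changed. Calls at lower counts or with an outlying mouse were not tested by it. P-values set the difference between the groups against the spread between mice of a group, which is estimated with information shared across genes. No libraries agreed within sampling noise (chi-square per degree of freedom 4.34 to 23.8).

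The members and lists were chosen with earlier results of these data known. Named were the called members, and for each role the member with the smallest p and that with the highest mean FPKM, with near-identical relatives. From each pathway list came the 2 genes with the smallest p and any called gene. Ifnar1, Ifnar2, Irf3 and Parp1 were named in any case, and 1 further gene that the rule names is not reported here. Other genes were named after their values were seen.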

Additional observations from a re-analysis of the deposited data

How the results depend on the processing

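All members with a value kept a positive log2 fold change under all 18 alternatives. The number called higher was 3 with edgeR and changed to 14 without a filter on low counts, 16 with DESeq2's Wald test, 0 on log2(FPKM + 1) without a filter and 1 with the replicate number as a block. It ran from 0 to 6 when each mouse was left out in turn. The median log2 fold change of the members was 0.49 on log2(FPKM + 1) with a mean of at least 0.5 and 0.42 without a filter, where the pseudocount compresses low genes, and 0.74 to 1.41 when each mouse was left out. Members with groups that did not overlap numbered 31 of 37 with edgeR (6.08% of all genes tested) and 31 of 39 without a filter (5.43%). They numbered 29 to 33 under the alternatives of scaling, filter and left-out mice, the only ones in which they were recounted. The 29 were of 34 members with a mean of at least 1 CPM. With a mouse left out they were 32 or 33 of 37 or 38, where fewer mice make a separation easier. The share over all genes was not taken in the other alternatives. Called genes of the pathway lists numbered 4 and changed to 10 without a filter, 8 with DESeq2, 1 in each of the 3 FPKM fits and 2 with the replicate block, and ran from 1 to 5 with a mouse left out. No pathway gene was called lower in any of them. The share of all genes called higher also moved. It was 0.059% with edgeR, 0.193% without a filter, 0.189% with DESeq2 and 0.0295% with the replicate block. In the FPKM fits it was 0.0252%, or 0.0116% without a filter, and it ran from 0.0232% to 0.111% with a mouse left out. The cause of these shifts was not tested. Same-numbered mice did not deviate together (r = -0.0105, -0.0585 and -0.00823), so the numbers were not taken as pairs. Of the 39 members, 20 had a mean under 1 FPKM, and their part in the number of calls was not tested.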
